A study of Mus musculus with 6 samples.

Results

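A set of 9 secreted or membrane factors that act on peripheral nerves were followed in mouse brown adipose tissue, a fat depot that makes heat: S100b, Clstn3, Bdnf, Gdnf, Nrtn, Nrg1, Nrg4, Ntn4 and Slit3. The 9 genes were taken by symbol from the 24016 usable symbols of the deposited expression table, with semaphorins left out, and all 9 were present. PolyA RNA had been sequenced from 3 libraries labelled AdIl17rc KO and 3 labelled WT, all from C57BL6 mice and numbered 1 to 3 in each group. The series title ties the knockout to the interleukin-17 receptor subunit IL-17RC of adipocytes, and names fat innervation as the subject. The labels used here name no Cre driver, age, sex or housing temperature, and do not say if each library is a separate animal. The p-values therefore reflect only the spread between these libraries, which may be technical. In bulk tissue, fewer cells of a type and less RNA per cell cannot be told apart.

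Fat depots receive sympathetic nerve fibres that release noradrenaline onto adipocytes, and target tissues shape that supply with secreted factors. Neurotrophins such as BDNF act through Trk receptors, GDNF and neurturin act through a GFRA coreceptor and the RET kinase, neuregulins act through ErbB receptors, and netrins and slits steer growing axons through receptors such as neogenin and Robo proteins. In mouse brown fat, an adipocyte form of calsyntenin 3 is known to promote secretion of S100B, which stimulates sympathetic axon growth.

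Values were FPKM, fragments scaled to transcript length and library size, so levels can be compared between genes. Sequencing depth was approximated from the smallest values as 31.1 to 36.0 megafragments in AdIl17rc KO libraries and 32.9 to 38.5 megafragments in WT libraries. Il17rc itself was at 1.32, 0.619 and 0.530 FPKM in AdIl17rc KO libraries 1, 2 and 3. In WT libraries 1, 2 and 3 it was at 3.21, 2.28 and 2.02 FPKM. The groups did not overlap, where 31.7% of the genes tested below were separated downwards. Library AdIl17rc KO 2 stood apart in that the feature Mir6236 held 38.2% of its FPKM sum. Skeletal muscle transcripts set libraries AdIl17rc KO 1 and 2 apart: the 8 muscle markers summed to 208, 368 and 1.57 FPKM in AdIl17rc KO libraries 1, 2 and 3, against 2.99, 2.37 and 29.4 FPKM in WT libraries 1, 2 and 3. The tissue label matched its markers, with Ucp1 between 1976 and 2979 FPKM over the 6 libraries. Of 13 sympathetic neuron markers 0 reached the minimum for the test, and 3 (among them Dbh, which makes noradrenaline) were listed at 0 throughout. These are RNA levels in bulk fat, and the nerve supply itself was not measured.

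The 9 factors spanned a wide range of levels. Averaged over the 6 libraries, Clstn3 was at 42.1 FPKM, Nrg4 at 36.8 and S100b at 13.6, which placed them above 94.3%, 93.5% and 84.1% of the genes with any signal. Nrtn (1.75 FPKM), Slit3 (1.38) and Ntn4 (0.992) lay near the middle of expressed genes. Gdnf (0.188), Bdnf (0.0536) and Nrg1 (0.0111) were near the detection limit. The order was firm at 3 steps: Nrg4 exceeded S100b, S100b exceeded Nrtn, and Ntn4 exceeded Gdnf with no overlap of their ranges over the 6 libraries. The neighbours Clstn3 and Nrg4, Nrtn and Slit3, Slit3 and Ntn4, Gdnf and Bdnf, and Bdnf and Nrg1 had overlapping ranges.

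**Figure D1:**
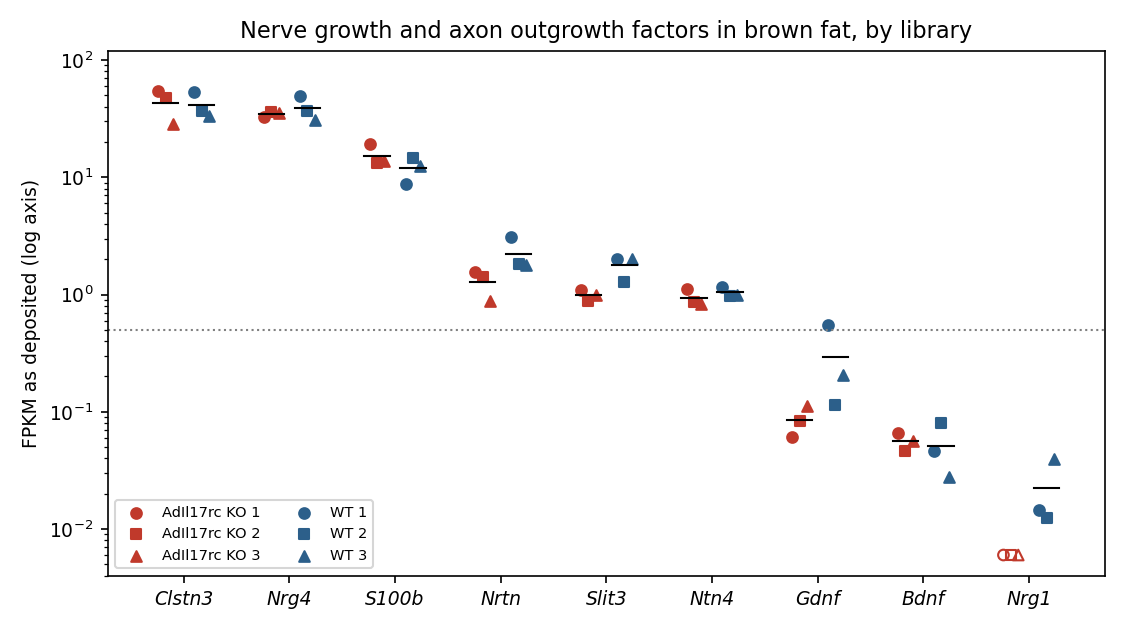
FPKM as deposited (log axis) of the 9 factors in each AdIl17rc KO library (red, left) and WT library (blue, right), with the group mean as a bar. The dotted line is the minimum mean of 0.5 FPKM for the test, open symbols at the bottom are libraries listed at 0 (Nrg1 in all 3 AdIl17rc KO libraries), and Clstn3, Nrg4 and S100b stand above the other factors.

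Genotypes were compared with limma, fitted to log2(FPKM + 0.5) over 10864 genes whose mean reached 0.5 FPKM, and a gene was called at a Benjamini-Hochberg adjusted p under 0.05. Fold changes on this scale understate the change of low genes. Of the 9 factors 6 passed the minimum, and limma called 0 of them, where it called 0.0184% of all tested genes, 0.00920% in each direction. At an unadjusted limma p under 0.05, 2 of the 6 were lower in AdIl17rc KO (Slit3 and Nrtn) and 0 were higher, where 25.8% of all tested genes passed in either direction. Robust limma also called 0. As deposited, 87.6% of all tested genes had a log2 fold change below 0 and the median gene was at -0.29, so the tests are also given relative to the median gene, by refitting values divided by median-of-ratios size factors ("scaled"). There 50.4% of all tested genes were below 0, and limma again called 0 of the 6 factors and 0.0184% of all genes, 0.00920% in each direction, with 1 higher (S100b) and 1 lower (Slit3) at an unadjusted p under 0.05, where 17.7% of all tested genes passed, 9.05% higher and 8.61% lower. The median log2 fold change of the 6 was -0.12 as deposited and 0.15 scaled, against -0.29 and -0.00174 for all tested genes. Il17rc, the gene named in the knockout, was itself not called. Its log2 fold change was -1.21 ± 0.25 as deposited (SE, limma adjusted p = 0.151) and -0.98 ± 0.19 scaled (limma adjusted p = 0.226). That 0 factors were called therefore does not show that they were unchanged.

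S100b encodes a small calcium-binding protein of Schwann cells, astrocytes and brown adipocytes. It was at 19.1, 13.1 and 13.6 FPKM in AdIl17rc KO libraries 1, 2 and 3, against 8.84, 14.7 and 12.6 FPKM in WT libraries 1, 2 and 3. The groups overlapped, with AdIl17rc KO 1 the highest library and WT 1 the lowest. Scaled, S100b was at 19.1, 15.5 and 16.4 in AdIl17rc KO libraries, against 6.67, 14.4 and 12.0 in WT libraries, and every AdIl17rc KO library lay above every WT library. Such a separation upwards was found for 1.25% of all tested genes as deposited and for 12.9% scaled. The fold change on the log2 scale was 0.34 ± 0.22 (SE, n = 3 per group) as deposited (limma adjusted p = 0.314) and 0.66 ± 0.26 scaled (limma adjusted p = 0.260), with a 95% interval of 0.06 to 1.27 for the scaled value. WT library 1 carried much of it: without that library the scaled log2 fold change was 0.35 (limma adjusted p = 0.523).

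S100b is also a glial marker, so glial transcripts are given beside it. The 13 Schwann cell and glia markers, S100b not among them, summed to 13.0, 13.9 and 13.5 scaled FPKM in AdIl17rc KO libraries, against 15.4, 11.8 and 13.3 in WT libraries, and the groups overlapped. Sox10, the transcription factor that defines the lineage, was under the minimum for the test. Scaled, it was at 0.162, 0.219 and 0.226 FPKM in AdIl17rc KO libraries, against 0.296, 0.202 and 0.268 in WT libraries, and overlapped. As deposited, it was at 0.162, 0.185 and 0.189 FPKM in AdIl17rc KO libraries, against 0.392, 0.206 and 0.281 in WT libraries, with no overlap. Separation downwards was found for 31.7% of tested genes as deposited, which do not include Sox10. S100b was thus higher in every scaled AdIl17rc KO library while the marker sum was not. Brown adipocyte markers (10 genes) summed to 8026, 8163 and 8054 scaled FPKM in AdIl17rc KO libraries, against 5199, 6892 and 6041 in WT libraries, so the scaled sum was separated in the same direction as S100b. As deposited the sum overlapped. Ucp1 and Cox8b made up most of it, and the scaled sum of the other 8 genes was 2096, 2146 and 1944 in AdIl17rc KO libraries, against 1559, 1984 and 1871 in WT libraries, and overlapped. Of the 10 genes 3 had a scaled log2 fold change below 0, among them Ppara, a nuclear receptor gene of fat oxidation, at 17.5, 13.7 and 9.61 scaled FPKM in AdIl17rc KO libraries, against 21.8, 19.7 and 18.8 in WT libraries. The part of adipocyte content or activity in the S100b values was not tested. Ager, which encodes the S100B receptor RAGE, was under the minimum at 0.237 to 0.393 FPKM in AdIl17rc KO libraries and 0.159 to 0.273 in WT libraries. Scaled, it was at 0.393, 0.320 and 0.285 in AdIl17rc KO libraries, against 0.206, 0.156 and 0.163 in WT libraries, with no overlap. Of tested genes, which do not include Ager, 12.9% were separated upwards scaled. Its values rest on about 12 to 16 fragments in AdIl17rc KO libraries and 8 to 12 in WT libraries.

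**Figure D2:**
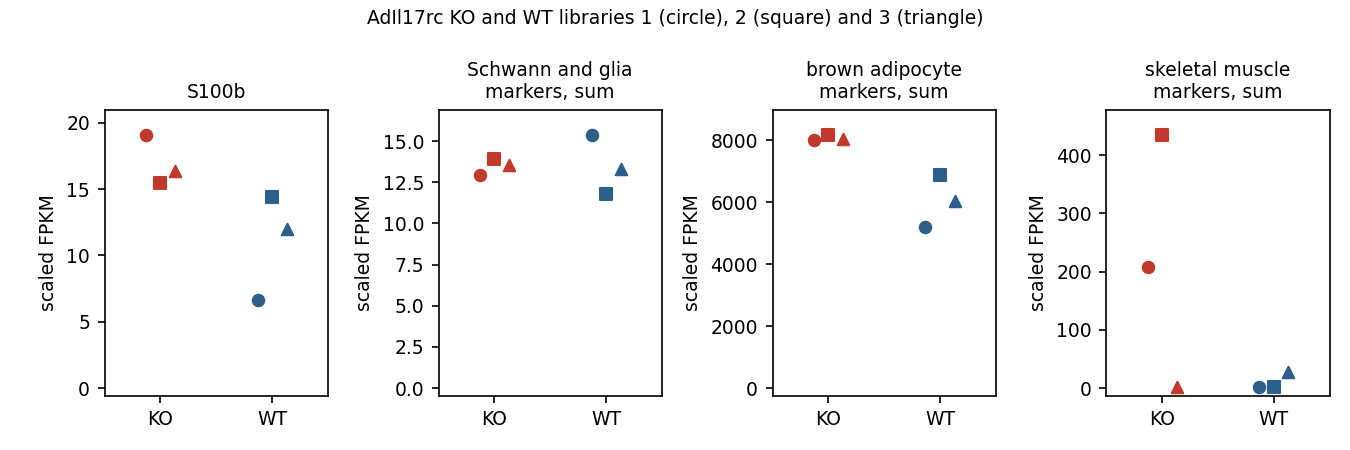
Scaled FPKM (linear axes) of S100b and of the summed Schwann and glia, brown adipocyte and skeletal muscle markers in AdIl17rc KO (KO, red) and WT (blue) libraries, where each symbol is 1 library. S100b and the brown adipocyte sum do not overlap between groups, the glial sum does, and muscle markers are high in AdIl17rc KO libraries 1 and 2.

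Clstn3 encodes calsyntenin 3, a transmembrane protein of the cadherin superfamily known at synapses, and the locus also gives the adipocyte form that aids S100B secretion. The deposited value is 1 number for the gene, so its forms were not separated here. Clstn3 was at 54.2, 47.0 and 28.3 FPKM in AdIl17rc KO libraries 1, 2 and 3, against 53.4, 36.7 and 33.0 FPKM in WT libraries 1, 2 and 3. The ranges overlapped almost wholly, and AdIl17rc KO held both the highest and the lowest library. The fold change on the log2 scale was 0.05 ± 0.27 (SE, n = 3 per group) as deposited (limma adjusted p = 0.899) and 0.38 ± 0.20 scaled (limma adjusted p = 0.353). Scaled, AdIl17rc KO libraries 1 and 2 were at 54.2 and 55.5 and library 3 at 33.9, against 40.3, 36.1 and 31.5 in WT libraries. The pair of high libraries is the pair with the most muscle transcripts. WT library 3, next in muscle markers at 29.4 FPKM, had the lowest scaled Clstn3. A link between them was not tested. With AdIl17rc KO library 3 as the only knockout library, assumed to vary like the others, the scaled log2 fold change was -0.08 (limma adjusted p = 0.796). After a further correction for GC content and transcript length the scaled value was 0.58 ± 0.16, with a limma adjusted p of 0.273, and the groups no longer overlapped. S100b (0.57 ± 0.26, limma adjusted p = 0.368) and Ntn4 (0.15 ± 0.10, limma adjusted p = 0.498) were also separated upwards after that correction. The share of all tested genes separated after it was not computed, so these separations cannot be weighed against a background. Before it, 12.9% of all tested genes were separated upwards scaled. In that fit limma called 0 of the 6 factors and 0.00925% of all genes, and 50.2% of all genes were below 0.

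RefSeq lists 2 start regions for Clstn3 and 1 for S100b in mouse build GRCm38.p6. The table used does not say which form of Clstn3 starts at either region, and neither is taken here as the start of the adipocyte form. They are shown because the single Clstn3 value was not split by start, and because S100B and the Clstn3 product work together in brown fat. The authors' values were made on mm9, so these coordinates locate only the sequences. Each run holds 250 bases before the start and 20 after it, 5′ to 3′ on the gene's strand. Capitals mark matches to 10 motifs searched on both strands: GGGCGG, TGACGTCA, TTGCGCAA, the E-box CACGTG, the SMAD palindrome GTCTAGAC, GTCTG, the TATA box TATAAA, and the EBF, NF-kB and PPAR (DR1) elements.
Clstn3 upstream start, chr6:124464765-124465034, minus strand: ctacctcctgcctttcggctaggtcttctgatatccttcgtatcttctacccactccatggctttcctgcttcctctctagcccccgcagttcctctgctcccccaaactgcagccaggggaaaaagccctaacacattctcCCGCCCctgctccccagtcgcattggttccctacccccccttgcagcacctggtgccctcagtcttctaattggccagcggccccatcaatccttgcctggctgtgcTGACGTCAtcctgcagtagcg
Clstn3 downstream start, chr6:124462725-124462994, minus strand: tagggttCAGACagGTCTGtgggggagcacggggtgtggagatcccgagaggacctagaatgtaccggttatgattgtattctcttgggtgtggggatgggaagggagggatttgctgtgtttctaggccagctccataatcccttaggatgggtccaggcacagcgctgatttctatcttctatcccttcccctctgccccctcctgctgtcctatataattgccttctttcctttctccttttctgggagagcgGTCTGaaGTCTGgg
S100b, chr10:76253586-76253855, plus strand: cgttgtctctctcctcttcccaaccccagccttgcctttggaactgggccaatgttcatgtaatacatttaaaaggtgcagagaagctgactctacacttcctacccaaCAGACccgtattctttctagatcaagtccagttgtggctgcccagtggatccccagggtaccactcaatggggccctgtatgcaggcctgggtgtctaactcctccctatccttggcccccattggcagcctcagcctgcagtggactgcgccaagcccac
The upstream Clstn3 region held TGACGTCA, the full cyclic AMP response element, beginning 1 base before the start. That motif was in 1.79% of the 32851 RefSeq promoter windows of 300 bases. It also held 1 GC box (GGGCGG, in 35.7% of windows). The downstream Clstn3 region held GTCTG, the SMAD box, at 4 places, and the S100b region held it at 1. GTCTG was in 49.6% of windows. A match is a description of the letters and not a binding site.

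Nrg4 encodes neuregulin 4, an ErbB4 ligand that brown fat releases in quantity. It was at 32.6, 36.0 and 35.3 FPKM in AdIl17rc KO libraries 1, 2 and 3, against 49.3, 37.0 and 30.5 FPKM in WT libraries 1, 2 and 3. As deposited, the AdIl17rc KO libraries lay close together and inside the WT range. Scaled, Nrg4 was at 32.5, 42.5 and 42.3 in AdIl17rc KO libraries, against 37.2, 36.4 and 29.1 in WT libraries, and the groups overlapped. There AdIl17rc KO libraries 2 and 3 lay above every WT library. The fold change on the log2 scale was -0.14 ± 0.19 (SE, n = 3 per group) as deposited (limma adjusted p = 0.607) and 0.19 ± 0.15 scaled (limma adjusted p = 0.512), so its sign turned with scaling. The 95% intervals were -0.58 to 0.30 and -0.16 to 0.53. Nrg1, the ErbB3 and ErbB4 ligand on which Schwann cells depend, was listed at 0 in all 3 AdIl17rc KO libraries, against 0.0144, 0.0124 and 0.0398 FPKM in WT libraries. Those WT values correspond to about 1, 1 and 3 fragments, so a difference was not detectable at this depth. With no filter on low values limma tested all 9 factors and called 0. ErbB receptors were low: Egfr averaged 1.60 ± 0.31 FPKM in AdIl17rc KO and 1.85 ± 0.28 in WT (SD, n = 3 each), and Erbb2, Erbb3 and Erbb4 stayed under the minimum.

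Nrtn encodes neurturin, a GDNF-family ligand that signals through GFRA2 and RET. It was at 1.56, 1.41 and 0.884 FPKM in AdIl17rc KO libraries 1, 2 and 3, against 3.08, 1.81 and 1.79 FPKM in WT libraries 1, 2 and 3. Every AdIl17rc KO library lay below every WT library, as deposited and scaled. Separation downwards was found for 31.7% of all tested genes as deposited and 12.5% scaled. The fold change on the log2 scale was -0.60 ± 0.23 (SE, n = 3 per group) as deposited (limma adjusted p = 0.173) and -0.34 ± 0.17 scaled (limma adjusted p = 0.323). By exact permutation of the 6 values, two-sided p was 0.1, the smallest that 3 against 3 allows. The values rest on about 50, 47 and 33 fragments in AdIl17rc KO libraries and 104, 71 and 66 in WT libraries. Without WT library 1 the scaled log2 fold change was -0.23 (limma adjusted p = 0.619), and without AdIl17rc KO library 3 it was -0.20 (limma adjusted p = 0.578). Nrtn transcript sequence is 72.8% G and C, exceeded by 1 tested gene, and scaled fold changes fell with GC content across genes (Spearman rho -0.44, a description across genes that are not independent). After GC and length correction the groups overlapped at a log2 fold change of -0.28 ± 0.14.

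Ret and Gfra2, the genes of the neurturin receptors, were lower in every AdIl17rc KO library, at levels under the minimum for the test. Which cells of the tissue held these transcripts was not tested. Ret was at 0.149, 0.195 and 0.223 FPKM in AdIl17rc KO libraries 1, 2 and 3, against 0.359, 0.311 and 0.448 FPKM in WT libraries 1, 2 and 3. Gfra2 was at 0.249, 0.210 and 0.107 FPKM in AdIl17rc KO libraries, against 0.419, 0.288 and 0.317 FPKM in WT libraries. For both genes the groups did not overlap, as deposited or scaled, where 31.7% of tested genes were separated downwards as deposited and 12.5% scaled. Neither gene is among those tested genes, which are more abundant. Both genes were singled out after their values were seen. They rest on about 23 to 40 (Ret) and 6 to 11 (Gfra2) fragments in AdIl17rc KO libraries, and 59 to 80 and 16 to 20 in WT libraries.

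Gdnf, the founding ligand of the family, was at 0.0615, 0.0828 and 0.113 FPKM in AdIl17rc KO libraries 1, 2 and 3, against 0.554, 0.114 and 0.206 FPKM in WT libraries 1, 2 and 3. These values correspond to about 7, 10 and 15 fragments in AdIl17rc KO libraries and 67, 16 and 27 in WT libraries. As deposited the groups were almost tied, with AdIl17rc KO library 3 at 0.11295 FPKM just below WT library 2 at 0.11367 FPKM. Once scaled they overlapped. WT library 1 set the difference in means, which was -0.205 FPKM with it and -0.0739 FPKM without it. Exact two-sided permutation p was 0.1 as deposited and 0.2 scaled. Its coreceptor gene Gfra1 was at 0.409 to 0.427 FPKM in AdIl17rc KO libraries and 0.393 to 0.686 in WT libraries, and overlapped.

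Bdnf, the neurotrophin that activates TrkB, was at 0.0656, 0.0464 and 0.0563 FPKM in AdIl17rc KO libraries 1, 2 and 3, against 0.0463, 0.0796 and 0.0276 FPKM in WT libraries 1, 2 and 3. That is 6 to 8 fragments in AdIl17rc KO libraries and 4 to 12 in WT libraries, and a difference was not detectable at this depth (exact two-sided permutation p = 0.8). Its receptor gene Ntrk2 was far more abundant than the ligand, at 12.9 ± 0.9 FPKM in AdIl17rc KO and 15.9 ± 1.7 in WT (SD, n = 3 each). Ntrk3, the receptor of neurotrophin 3, was at 14.5 ± 5.8 and 20.3 ± 3.3 FPKM in AdIl17rc KO and WT. The Ntrk genes were picked for their levels, and limma called neither (adjusted p = 0.235 and 0.233 as deposited). Scaled, both overlapped, with log2 fold changes of 0.03 ± 0.17 for Ntrk2 and -0.21 ± 0.23 for Ntrk3.

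Slit3 encodes a secreted ligand of Robo receptors that repels or guides axons. It was at 1.08, 0.884 and 0.992 FPKM in AdIl17rc KO libraries 1, 2 and 3, against 2.02, 1.29 and 2.01 FPKM in WT libraries 1, 2 and 3. All AdIl17rc KO libraries lay below all WT libraries, as deposited and scaled, and they varied less among themselves. The fold change on the log2 scale was -0.60 ± 0.18 (SE, n = 3 per group) as deposited (limma adjusted p = 0.159) and -0.36 ± 0.14 scaled (limma adjusted p = 0.265). After GC and length correction it was -0.11 ± 0.15, with a 95% interval of -0.47 to 0.26, and the groups overlapped. Of the Robo genes Robo4, the endothelial member, was the most abundant at 8.58 ± 2.86 FPKM in AdIl17rc KO and 13.1 ± 5.1 in WT (SD, n = 3 each; limma adjusted p = 0.233, scaled log2 fold change -0.25 ± 0.20), while Robo1, Robo2 and Robo3 were all under the minimum. Slit1 and Slit2 were under it too.

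The start regions of Slit3 and Nrtn are shown because these were the tested factors lower in every AdIl17rc KO library, drawn in the same way as those above.
Slit3, chr11:35121206-35121475, plus strand: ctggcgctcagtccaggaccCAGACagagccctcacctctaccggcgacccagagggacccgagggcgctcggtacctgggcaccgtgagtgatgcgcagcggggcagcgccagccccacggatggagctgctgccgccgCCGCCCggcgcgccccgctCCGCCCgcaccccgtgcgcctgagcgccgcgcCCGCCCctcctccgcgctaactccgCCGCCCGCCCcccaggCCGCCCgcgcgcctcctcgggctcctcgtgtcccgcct
Nrtn, chr17:56757529-56757798, minus strand: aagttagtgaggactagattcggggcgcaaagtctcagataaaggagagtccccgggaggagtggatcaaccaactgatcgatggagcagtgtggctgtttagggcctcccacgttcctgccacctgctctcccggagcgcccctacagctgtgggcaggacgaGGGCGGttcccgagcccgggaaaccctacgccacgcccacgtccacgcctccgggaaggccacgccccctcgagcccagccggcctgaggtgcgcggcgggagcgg
Their 300-base windows were 78.3% (Slit3) and 66.7% (Nrtn) G and C, against a median of 52.7% over all windows and 53.7% for S100b. Slit3 held the GC box at 6 places and the SMAD box at 1, and Nrtn held the GC box at 1. Among the motifs not found in the windows of these 4 genes were the EBF site (0.904% of all windows), the C/EBP site TTGCGCAA (0.183%) and the NF-kB site (0.155%).

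Ntn4 encodes netrin 4, a laminin-related protein of basement membranes. It was at 1.12, 0.868 and 0.835 FPKM in AdIl17rc KO libraries 1, 2 and 3, against 1.16, 0.969 and 0.998 FPKM in WT libraries 1, 2 and 3, with overlapping groups. Scaled, it was at 1.12, 1.02 and 1.0005 in AdIl17rc KO libraries, against 0.878, 0.952 and 0.953 in WT libraries, and the groups were separated by a small margin. The fold change on the log2 scale was -0.10 ± 0.16 (SE, n = 3 per group) as deposited (limma adjusted p = 0.649) and 0.12 ± 0.11 scaled (limma adjusted p = 0.582). The scaled 95% interval was -0.14 to 0.37. Neo1, which encodes the netrin receptor neogenin, was at 1.46, 1.19 and 0.939 FPKM in AdIl17rc KO libraries, against 2.57, 1.78 and 1.66 in WT libraries, with no overlap and a scaled log2 fold change of -0.30 ± 0.13 (limma adjusted p = 0.276). Over all 6 tested factors, 2 were separated as deposited and 4 scaled, where 33.0% and 25.4% of all tested genes were.

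**Figure D3:**
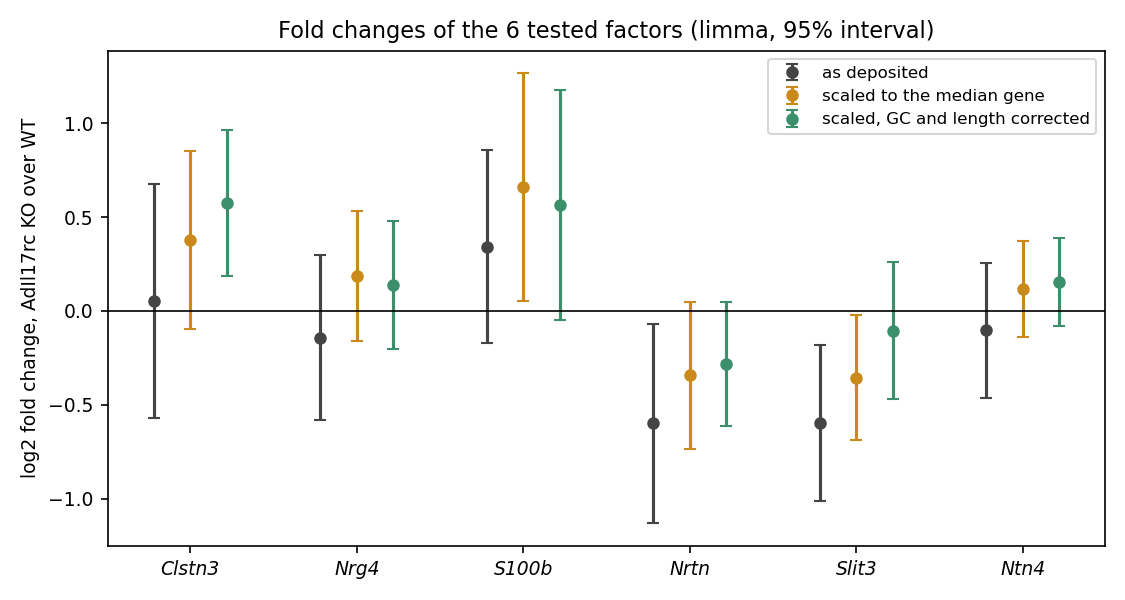
Log2 fold change (AdIl17rc KO over WT) of the 6 tested factors by limma on log2(FPKM + 0.5), with 95% intervals, as deposited (grey), scaled to the median gene (orange) and with GC and length correction added (green). Nrg4 and Ntn4 lie below 0 as deposited and above it in the other fits, and Slit3 moves from -0.60 to -0.11.

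Ratios between factors within a library do not depend on scaling, so all 15 pairs of the 6 tested factors were compared, a choice made after the values were seen. In 8 pairs the ratio did not overlap between groups, and these were the pairs that set Clstn3, Nrg4, S100b or Ntn4 against Nrtn or Slit3. The 7 pairs within each of those sets overlapped. Clstn3 exceeded Nrtn 34.7-, 33.4- and 32.0-fold in AdIl17rc KO libraries 1, 2 and 3, against 17.3-, 20.3- and 18.5-fold in WT libraries 1, 2 and 3. S100b exceeded Slit3 17.6-, 14.8- and 13.8-fold in AdIl17rc KO libraries, against 4.37-, 11.3- and 6.26-fold in WT libraries. The tightest of the 8 was the Clstn3 to Nrtn ratio, at 33.4 ± 1.3 in AdIl17rc KO and 18.7 ± 1.5 in WT (SD, n = 3 each). Each of the 8 had an exact two-sided permutation p of 0.1, the smallest possible. The background was high: of all tested genes, 34.7% had a higher ratio to Nrtn and 45.3% a higher ratio to Slit3 in every AdIl17rc KO library than in any WT library. After GC and length correction 2 of the 15 pairs did not overlap, Clstn3 and Nrg4 against Nrtn. There 24.7% of all genes had a separated higher ratio to Nrtn, while for the ratio to Slit3 9.26% were separated upwards and 1.06% downwards (0.287% downwards for Nrtn).

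**Figure D4:**
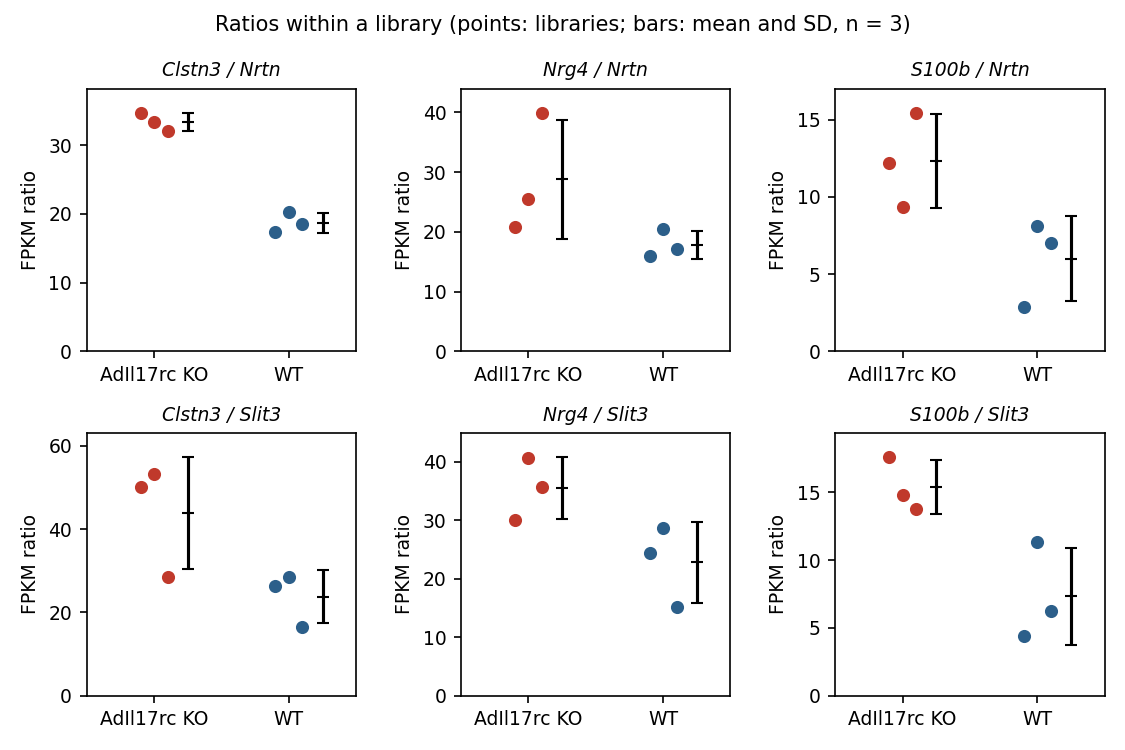
FPKM ratio (linear axes) of Clstn3, Nrg4 and S100b to Nrtn (top) and to Slit3 (bottom) within each AdIl17rc KO (red, left) and WT (blue, right) library, with mean and SD beside the points (n = 3 each). All AdIl17rc KO points lie above all WT points, by the smallest margin for Clstn3 to Slit3 and Nrg4 to Nrtn.

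Receptors and coreceptors of these ligands formed a list of 33 genes, of which 13 were tested. Limma called 0 of them, as deposited and scaled. At an unadjusted p under 0.05, 4 were lower as deposited and 2 scaled, and 0 were higher in either fit. Over all tested genes, 24.8% were lower and 1.01% higher at that threshold as deposited, and 8.61% were lower scaled. The 13 had a median log2 fold change of -0.45 as deposited, -0.21 scaled and -0.06 after GC and length correction, against -0.29, -0.00174 and -0.000566 for all tested genes. Sdc4, which encodes the heparan sulfate coreceptor syndecan 4, was the most abundant at 197, 186 and 230 FPKM in AdIl17rc KO libraries 1, 2 and 3, against 406, 284 and 303 FPKM in WT libraries 1, 2 and 3. Its groups did not overlap and its scaled log2 fold change was -0.35 ± 0.14 (limma adjusted p = 0.259). Sort1, which encodes the proneurotrophin receptor sortilin, was at 19.6, 17.1 and 12.4 FPKM in AdIl17rc KO libraries, against 29.8, 21.02 and 23.7 FPKM in WT libraries, again with no overlap (scaled log2 fold change -0.27 ± 0.13, limma adjusted p = 0.326). Sdc1, another syndecan gene, averaged 0.803 ± 0.137 FPKM in AdIl17rc KO and 1.44 ± 0.27 in WT (SD, n = 3 each), separated as deposited and overlapping once scaled. Sdc2 averaged 2.73 ± 0.41 and 3.09 ± 0.20 FPKM in AdIl17rc KO and WT, with a log2 fold change of -0.16 ± 0.16 as deposited and 0.12 ± 0.12 scaled.

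**Figure D5:**
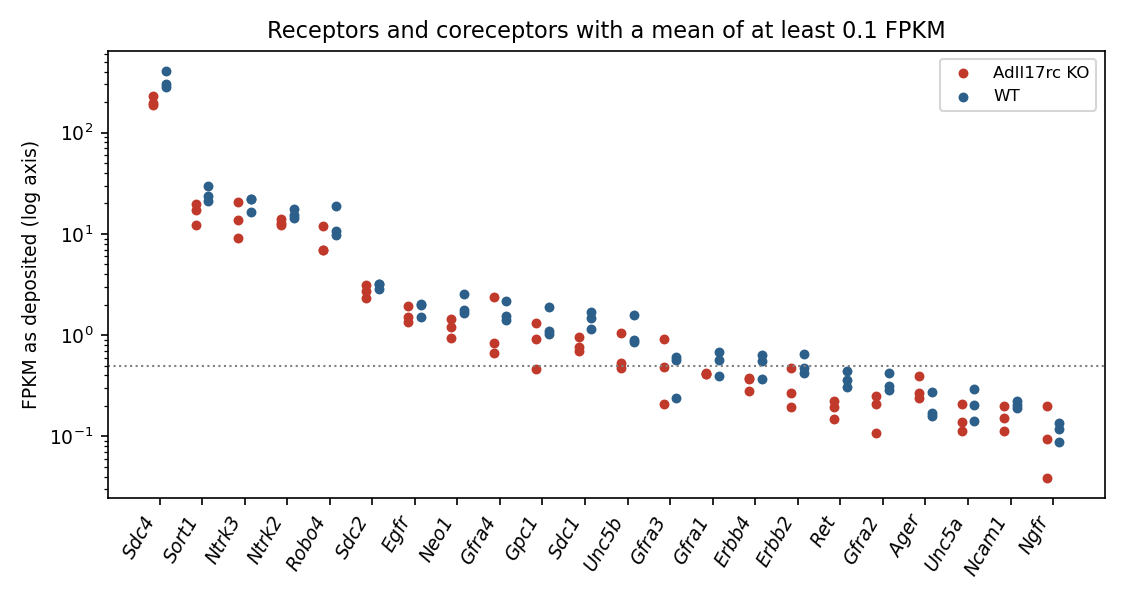
FPKM as deposited (log axis) of the receptor and coreceptor genes with a mean of at least 0.1 FPKM in AdIl17rc KO (red, left) and WT (blue, right) libraries. The dotted line is the minimum of 0.5 FPKM, Sdc4 is highest at 186 to 406 FPKM, and Ret and Gfra2 lie under the line with separated groups.

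Other members of the same families were mostly low: of 16 relatives, 3 passed the minimum and limma called 0, while 1 (Nrg3) was listed at 0 in all 6 libraries. Clstn1, the calsyntenin 1 gene, was at 3.13, 1.89 and 1.23 FPKM in AdIl17rc KO libraries 1, 2 and 3, against 3.65, 3.24 and 3.38 FPKM in WT libraries 1, 2 and 3 (scaled log2 fold change -0.40 ± 0.21, limma adjusted p = 0.359). Of 15 enzymes that cleave these ligands or their receptors, 12 were tested and 0 called, with 12 below 0 as deposited and 9 scaled. Furin, the convertase that matures proneurotrophins, averaged 11.8 ± 2.0 FPKM in AdIl17rc KO and 19.5 ± 5.3 in WT (SD, n = 3 each), with a scaled log2 fold change of -0.36 ± 0.12 that was -0.10 after GC and length correction. Pcsk6, a related convertase gene, averaged 9.42 ± 1.04 and 14.7 ± 1.9 FPKM in AdIl17rc KO and WT, with a scaled log2 fold change of -0.30 ± 0.12. Of 20 genes of signalling inside the receiving cell, 18 were tested and 0 called. Trio, a gene that acts in netrin signalling, came nearest at 2.94 ± 0.295 FPKM in AdIl17rc KO and 5.53 ± 1.32 in WT (scaled log2 fold change -0.49 ± 0.11, limma adjusted p = 0.233). Nck1, an adaptor gene, was separated upwards once scaled (0.33 ± 0.11, limma adjusted p = 0.245).

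Patterns across the 6 libraries were compared between each factor with a mean of at least 1 FPKM and 9069 other genes, as Pearson correlations of scaled log2(FPKM + 0.5). With 6 points high values are common, and the correlations describe likeness only. S100b was most like Foxred1 (r = 0.998), Acad9 (0.992) and Ufsp2 (0.988). Nrtn was most like Dcaf5 (0.997), Zc3h10 (0.996) and Gtl3 (0.993). Slit3 was most like Nid1 (0.981), which encodes the basement membrane protein nidogen 1, Hist2h2aa1 (0.980) and Colec12 (0.978). Clstn3 was most like Ccdc53 (0.985), Tpd52l1 (0.978) and Mlycd (0.976), and Nrg4 was most like Nhlrc2 (0.976), Atg12 (0.974) and Clec16a (0.961). Correlations over 0.9 were reached by 310 genes for Nrtn, 208 for S100b, 55 for Slit3, 40 for Clstn3 and 36 for Nrg4. Clstn3 and S100b, whose products act together, correlated at 0.31.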

How the data were processed

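The authors deposited 1 table of FPKM values per gene symbol (24043 rows, 6 libraries). Per the submitters' processing notes STAR 2.5.1b, Cufflinks 2.2.1 and DESeq2 1.10.1 were used with mouse build mm9. For the annotation, strand setting and bias correction, the value is not given in the sources used here. A workbook had turned 27 symbols into dates, which were left out. No count model was used, since the values are not counts.

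log2(FPKM + 0.5) was fitted with limma 3.58.1 in R 4.3.3 (genotype, empirical Bayes with trend, two-sided). The fit was also run on independent normal values simulated from its own means and variances. Such a run does not test whether the model suits these data. Median-of-ratios factors were 1.00, 0.847 and 0.834 for AdIl17rc KO libraries 1, 2 and 3 and 1.33, 1.02 and 1.05 for WT libraries 1, 2 and 3. GC content and length came from GENCODE M21 (22633 symbols matched directly, 904 through an older name) and were corrected with splines of 4 degrees of freedom. Fragments are FPKM times median transcript length times approximated depth, and cover counting only. Promoters are from RefSeq (GRCm38.p6) for 8 of 9 factors. The factors, gene lists and motifs were chosen with earlier results of these data known. Named genes were every factor, up to 6 genes per list by smallest scaled p at a mean of at least 1 FPKM, and the 3 genes most like each factor. Outside that rule, Ret, Gfra1, Gfra2, Ager, Ntrk2, Ntrk3, Egfr, Erbb, Robo and Slit relatives, Nrg3, Ppara and Uchl1 were named after their values were seen, and Sox10 and other markers stand beside the results they touch. Alternatives were other pseudocounts, filters, scalings and variance models, a replicate block, and each library left out.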

Additional observations from a re-analysis of the deposited data

How the results depend on the processing

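Leaving out 1 library gave -0.14 to 0.33 for Clstn3 and -0.30 to 0.04 for Nrg4 as deposited, and 0.26 to 0.61 and 0.08 to 0.31 scaled. In all alternatives run, limma called 0 of the 6 tested factors, and S100b (above 0), Nrtn and Slit3 (below 0) kept their direction as deposited and scaled. Over the alternatives to the fit as deposited, the smallest limma adjusted p was 0.0533 for Slit3 and 0.0576 for Nrtn. Both came with the replicate block on the deposited scale. With that block and median-of-ratios scaling the limma adjusted p was 0.244 for Slit3 and 0.267 for Nrtn. Nrg4 turned to 0.19 with median-of-ratios scaling (the same with a replicate block), 0.10 with quantile normalization, 0.14 with GC and length correction, 0.0608 with a common sum that leaves out small RNA and predicted genes, and 0.0399 without WT library 1. Ntn4 turned to 0.12 with median-of-ratios scaling (the same with a replicate block), 0.14 with quantile normalization, 0.15 with GC and length correction and 0.0316 with that common sum. Clstn3 as deposited turned to -0.14 and -0.0351 without AdIl17rc KO libraries 1 and 2, -0.0122 and -0.0882 without WT libraries 2 and 3, and -0.50 with AdIl17rc KO library 3 alone (-0.0763 scaled). The cause was not tested. The count over all genes was 2 as deposited and scaled. It was 263 with a common sum, to which Mir6236 adds in AdIl17rc KO library 2, and Trio was then the 1 pathway gene called. It was 14 with robust limma, 1 with no filter, 1 with GC and length correction (also with the block), and 9 (7 scaled) with AdIl17rc KO library 3 alone. Leaving out 1 library gave 1 to 61 calls as deposited and 1 to 24 scaled, the most without AdIl17rc KO library 3. Libraries of the same number did not deviate together (correlations of 0.104, -0.121 and -0.0809), and with a replicate block limma called 0 factors and 1 gene, as deposited and scaled. GC and length correction, the second common sum and AdIl17rc KO library 3 alone were chosen after seeing the data.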

Other observations

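Uchl1, the gene of a neuronal ubiquitin hydrolase, was the neuron marker with the clearest separation, a choice made after its values were seen. It was at 0.123, 0.0581 and 0.0794 FPKM in AdIl17rc KO libraries 1, 2 and 3, against 0.436, 0.349 and 0.374 FPKM in WT libraries 1, 2 and 3. That is about 5, 2 and 3 fragments in AdIl17rc KO libraries and 17, 16 and 16 in WT libraries. It lay under the minimum for the test. Scaled, it was also separated. The 13 sympathetic neuron markers together summed to 0.362 to 0.685 FPKM in AdIl17rc KO libraries and 0.827 to 0.928 in WT libraries, and that separation rested on Uchl1. Without it the other 12 summed to 0.562, 0.304 and 0.371 FPKM in AdIl17rc KO libraries, against 0.480, 0.477 and 0.554 FPKM in WT libraries, and overlapped. Th and Dbh were listed at 0 in all 6 libraries. None of these RNA values measures the nerve supply.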
